A study of Mus musculus with 6 samples.

Results

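The master transcription factors of thymic mimetic cells were described as 10 genes, taken by symbol from the 51810 genes of the deposited series table, out of 55385 genes counted in all. They were Pou2f3 (tuft cells), Spib and Sox8 (microfold cells), Hnf4a and Hnf4g (enterocyte and hepatocyte-like cells), Insm1 (neuroendocrine cells), Foxj1 (ciliated cells), Foxi1 (ionocytes), Myog (skeletal muscle) and Grhl3 (keratinocytes). All 10 had exactly 1 row and were detected in every library. The libraries were 3 from Trp53 conditional knockout mice (cKO, labelled P53-cKO) and 3 from mice without Cre (WT, titled NoCre and with the genotype P53-WT). The title of the series links p53 repression in thymic epithelium to variable chromatin accessibility and immune tolerance, and the comparison addresses how transcript levels in these cells differ once p53 is lost.

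Each library was made from poly(A) RNA of 75000 sorted medullary thymic epithelial cells of the mature fraction (mTEChi) from mice aged 4 to 5 weeks. Totals were 46500807 to 50128045 counts in cKO libraries and 45457892 to 48564222 in WT libraries. The labels name neither the Cre driver nor whether the WT mice carry floxed alleles, and they do not say how many animals gave each library. P-values therefore reflect only variation among these libraries, some of which may be technical. Trp53 was at 8.17, 7.85 and 7.38 CPM (counts scaled to library size) in cKO libraries, against 116, 102 and 109 CPM in WT libraries, so every library matched its label. The epithelial surface gene Epcam (525 to 589 CPM in cKO, 458 to 526 in WT), the antigen regulator Aire (822 to 1160 CPM in cKO, 1201 to 1417 in WT) and the class II MHC gene H2-Aa (8193 to 9259 CPM in cKO, 8049 to 9219 in WT) were detected at these levels in all libraries. Library sizes were adjusted by the trimmed mean of M-values (TMM) in edgeR for the CPM values of all genes and lists. Summed markers of several other cell types overlapped between groups, at 197 to 292 CPM in cKO and 202 to 307 in WT for 15 thymocyte genes (Tcf7 the most abundant), 174 to 213 CPM in cKO and 179 to 205 in WT for 10 fibroblast and endothelial genes (Col1a1), and 990.1 to 1094 CPM in cKO and 1058 to 1135 in WT for 7 cortical epithelial genes (Ccl25). Foxn1 of the cortical list, the factor required for thymic epithelial development, was singled out after its values were seen. It was at 147, 135 and 128 CPM in cKO libraries, against 209, 181 and 207 CPM in WT libraries, without overlap (log2 fold change −0.54, SE 0.0869, edgeR unadjusted p = 3.45e-05, adjusted p = 0.0506). The sum of 6 red cell markers (Alas2 the most abundant) was lower in every cKO library, at 49.6 to 72.5 CPM in cKO against 73.5 to 81.4 CPM in WT, with 5 of the 6 below 0 in log2 fold change, none at 0 counts and none past the threshold. Among 16 markers of mature medullary cells Cd74 was the most abundant, and none of these markers passed the threshold. At an unadjusted edgeR p under 0.05 were 4 of the 16, beside 8.51% of all genes tested. Without overlap, 2 of the 16 were higher in cKO and 2 lower, beside 7.14% and 7.28% of all genes tested. Aire was lower without overlap (log2 fold change −0.32, SE 0.123, edgeR adjusted p = 0.516).

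Mimetic cells are medullary epithelial cells that switch on the expression programme of a peripheral cell type, such as muscle or gut epithelium, and so show its proteins to developing T cells. Each kind carries the transcription factor that directs the same lineage in its home tissue, and loss of such a factor in mice removes the matching mimetic cells in several cases studied. Because the sorted population is a mixture in which each kind is a small part, fewer cells of a kind and less RNA per cell cannot be told apart in these bulk libraries.

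The factors differed widely in length-corrected level. By the deposited TPM values, which divide counts by exon length and scale each library to the same sum, Spib was highest, with 472 ± 53.2 TPM in cKO and 465 ± 14.0 TPM in WT (SD, n = 3 each). Insm1 followed with 236 ± 15.6 TPM in cKO and 220 ± 23.6 TPM in WT, and Foxj1 with 56.6 ± 4.44 TPM in cKO and 55.8 ± 8.19 TPM in WT. In both groups these 3 were separate in every library from each other and from the factors below them. Pou2f3 came next, with 28.7 ± 6.32 TPM in cKO and 28.6 ± 5.22 TPM in WT.

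A middle set of factors lay close together. Hnf4g had 23.5 ± 2.17 TPM in cKO and 22.7 ± 1.60 TPM in WT, Grhl3 22.6 ± 2.27 TPM in cKO and 21.5 ± 1.30 TPM in WT, and Foxi1 18.5 ± 2.64 TPM in cKO and 19.8 ± 0.396 TPM in WT. Neighbours from Pou2f3 down to Foxi1 overlapped between libraries in both groups, so their order is not resolved. Myog, with 27.4 ± 6.11 TPM in cKO and 18.2 ± 5.54 TPM in WT, was the fifth highest factor in cKO and the eighth in WT. Sox8 was ninth, with 15.0 ± 2.86 TPM in cKO and 11.2 ± 1.28 TPM in WT. Hnf4a was lowest, with 5.63 ± 0.272 TPM in cKO and 5.29 ± 0.652 TPM in WT, and was separate from Sox8 in both groups. Even Hnf4a was above 71.6% of the genes in the series table by mean TPM, and Spib was above 99.5%.

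**Figure D1:**
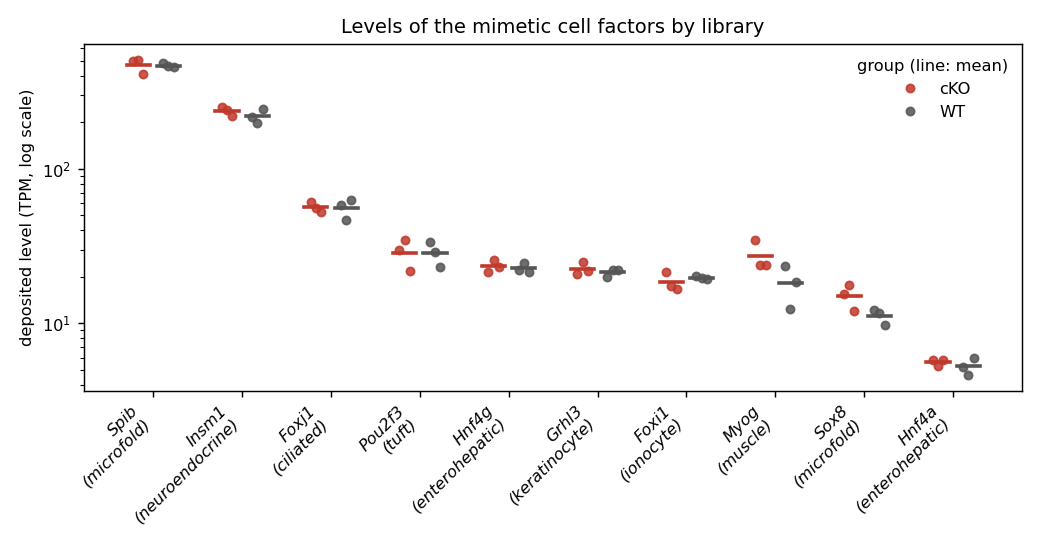
Deposited level of each factor in TPM on a log axis, with 3 cKO libraries (red, left) and 3 WT libraries (grey, right) as points and the group mean as a line. Spib and Insm1 stand above the others. On this scale the groups are apart only for Myog, by a narrow margin, and for Sox8 cKO library 3 (12.02 TPM) lies below WT library 1 (12.24 TPM).

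None of the 10 factors passed the threshold between cKO and WT. For Myog (1.49-fold) and Sox8 (1.31-fold) all 3 cKO libraries lay above all 3 WT libraries in TMM-scaled CPM. The groups overlapped for Myog when scaled by library totals alone, and for Sox8 in the deposited TPM. The other 8 factors differed by a log2 fold change between −0.12 and 0.08 with overlapping groups. With edgeR's quasi-likelihood test at an adjusted p of 0.05, 0 of 10 factors were called, beside 0.0596% of the 28543 genes tested. At an unadjusted edgeR p under 0.05 there were 2 of 10, beside 8.51% of all genes, and DESeq2 and limma-voom called 0 of 10. Of the alternatives run, only edgeR with a term for library number (the replicate block) called 1, Myog. That setting called 0.711% of all genes tested. The labels do not say that equal numbers mark paired libraries. Groups did not overlap with cKO higher for 2 of 10 factors, beside 7.14% of all genes, and with cKO lower for 0, beside 7.28%. The median log2 fold change was 0.03 over the factors and −0.01 over all genes tested. A p that misses the threshold does not show that the groups are alike, and each interval below gives the range of fold changes left by these libraries.

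**Figure D2:**
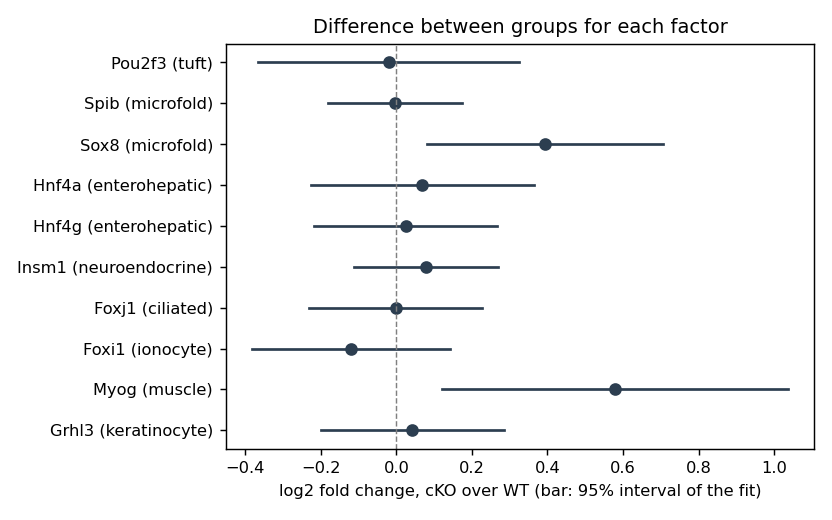
Log2 fold change of each factor, cKO over WT (points), with the 95% interval of the edgeR fit (bars) and a dashed line at 0. The intervals of Sox8 and Myog lie above 0 before adjustment over all genes, and those of the other 8 span 0.

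Myog had the largest log2 fold change of the 10. It encodes myogenin, the basic helix-loop-helix factor that drives muscle precursors into terminal differentiation (ENSMUSG00000026459, chromosome 1, 134289989 to 134292548, plus strand, mm10). It was at 22.4, 15.4 and 15.9 CPM in cKO libraries, against 15.1, 8.46 and 12.4 CPM in WT libraries. cKO library 1 was the highest and WT library 2 the lowest of the 6, and the lowest cKO library stood only just above the highest WT library. Myog differed by a log2 fold change of 0.58 (SE 0.208, 95% interval 0.12 to 1.04), with an edgeR adjusted p of 0.481. With the replicate block it was 0.59 (edgeR adjusted p = 0.036), though the labels do not state that the numbers pair libraries. The replicate spread was wide, at 21.8% of the mean in cKO and 27.9% in WT, against a counting error of about 3.75% for a gene of this count. Without WT library 2 the log2 fold change was 0.38, and without cKO library 1 it was 0.39.

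Sox8 encodes a factor of the SoxE family that is needed for maturation of microfold cells in mouse gut (ENSMUSG00000024176, chromosome 17, 25565892 to 25570686, minus strand). It was at 20.8, 23.7 and 16.7 CPM in cKO libraries, against 16.4, 16.6 and 13.6 CPM in WT libraries. The groups were apart by a narrow margin in CPM, with cKO library 3 next to WT library 2, and overlapped in TPM. Sox8 differed by a log2 fold change of 0.39 (SE 0.144, 95% interval 0.08 to 0.71), with an edgeR adjusted p of 0.4795. Of its exon bases 10.6% are shared with Cerox1, a noncoding gene on the opposite strand, and strand was ignored in counting, so reads there counted for both genes. Cerox1 had 540, 708 and 555 counts in cKO libraries and 468, 548 and 472 in WT libraries. Taking off the Cerox1 reads expected in the shared bases at even coverage, which were 72 to 110 per library, left the Sox8 log2 fold change at 0.41 (edgeR adjusted p = 0.479).

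The promoters of these 2 genes are shown because they were the factors whose groups did not overlap in CPM. They are the 250 bases before the RefSeq start on GRCm38.p6, the build also called mm10, read 5′ to 3′ on the gene's strand. Capitals mark the E-box CANNTG, the sequence that basic helix-loop-helix factors such as myogenin bind, searched on both strands. Myog lies at chr1:134289754-134290003 on the plus strand and Sox8 at chr17:25570687-25570936 on the minus strand.
Myog: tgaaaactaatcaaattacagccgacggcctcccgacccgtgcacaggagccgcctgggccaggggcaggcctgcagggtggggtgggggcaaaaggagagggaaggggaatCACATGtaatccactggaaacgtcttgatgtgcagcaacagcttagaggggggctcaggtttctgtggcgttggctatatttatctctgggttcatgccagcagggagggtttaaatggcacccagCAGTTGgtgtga
Sox8: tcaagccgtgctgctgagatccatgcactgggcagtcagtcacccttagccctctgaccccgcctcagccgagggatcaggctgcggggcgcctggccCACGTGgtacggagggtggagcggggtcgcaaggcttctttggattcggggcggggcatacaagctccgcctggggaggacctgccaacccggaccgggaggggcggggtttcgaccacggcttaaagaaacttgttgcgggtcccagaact
The Myog window holds 2 E-boxes and the Sox8 window 1, as do 66.2% of the 32851 promoter windows in the table with at least 1. The Ensembl model used for counting begins Myog at 134289989, inside the window shown. The p53 half-site, searched by its usual consensus on both strands, was in none of the 7 promoter windows listed for 6 of the 10 factors (Myog, Sox8, Spib, Foxi1, Grhl3 and 2 for Hnf4a), against 7.13% of all windows. A match or its absence in these letters says nothing on binding.

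Spib encodes an Ets-family factor required for microfold cell development, which B cells and plasmacytoid dendritic cells also use (ENSMUSG00000008193, chromosome 7, 44525993 to 44532071). It was at 618, 626 and 525 CPM in cKO libraries, against 592, 601.5 and 579.7 CPM in WT libraries. WT libraries lay within the range of the cKO libraries, and cKO library 3 was the lowest of the 6. For Spib the log2 fold change was −0.0040 (SE 0.082, 95% interval −0.18 to 0.17, or 0.882 to 1.13-fold), with an edgeR adjusted p of 0.995. The summed level of 9 B cell markers, Pax5 the most abundant, was 93.4 to 109 CPM in cKO and 91.6 to 105.6 CPM in WT, and that of 13 dendritic and myeloid markers, Lyz2 the most abundant, was 1164 to 1505 CPM in cKO and 1078 to 1265 CPM in WT. No marker of either list was at 0 or passed the threshold, and their part in the Spib level was not tested.

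Hnf4a and Hnf4g encode related nuclear receptors that direct gut and liver genes. Hnf4a (ENSMUSG00000017950, chromosome 2, 163506808 to 163572910) was at 12.2, 11.0 and 12.4 CPM in cKO libraries, against 10.9, 10.2 and 12.8 CPM in WT libraries. Hnf4g (ENSMUSG00000017688, chromosome 3, 3508030 to 3658052) was at 24.6, 29.2 and 27.2 CPM in cKO libraries, against 25.1, 29.3 and 25.1 CPM in WT libraries. Both overlapped between groups. The log2 fold change was 0.07 for Hnf4a (SE 0.136, 95% interval −0.23 to 0.36, edgeR adjusted p = 0.938) and 0.02 for Hnf4g (SE 0.112, 95% interval −0.22 to 0.27, edgeR adjusted p = 0.974). The 2 paralogs did not follow each other across libraries: WT library 2 was the lowest for Hnf4a and the highest for Hnf4g.

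Insm1 encodes a zinc finger factor of endocrine differentiation (ENSMUSG00000068154, chromosome 2, 146221921 to 146225020, a single exon). It was at 335, 320.4 and 302 CPM in cKO libraries, against 289.5, 279.3 and 339 CPM in WT libraries. The highest and the lowest value were both in WT, in libraries 3 and 2. For Insm1 the log2 fold change was 0.08 (SE 0.0877, 95% interval −0.11 to 0.27, edgeR adjusted p = 0.866).

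Foxj1 and Foxi1 encode forkhead factors, Foxj1 of motile cilia and Foxi1 of ionocytes and other cells rich in proton pumps. Foxj1 (ENSMUSG00000034227, chromosome 11, 116330704 to 116335399) was at 69.7, 63.3 and 61.2 CPM in cKO libraries, against 65.8, 55.7 and 73.0 CPM in WT libraries. Foxi1 (ENSMUSG00000047861, chromosome 11, 34204338 to 34208089) was at 22.1, 17.6 and 17.5 CPM in cKO libraries, against 20.5, 21.1 and 20.5 CPM in WT libraries. For Foxi1 the SD of the WT libraries was 1.76% of their mean, while cKO library 1 was above and cKO libraries 2 and 3 below all WT libraries. The log2 fold change was −0.0020 for Foxj1 (SE 0.106, 95% interval −0.23 to 0.23, edgeR adjusted p = 0.998) and −0.12 for Foxi1 (SE 0.121, 95% interval −0.38 to 0.14, edgeR adjusted p = 0.846).

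Pou2f3 encodes the POU factor without which mice lack tuft cells (ENSMUSG00000032015, chromosome 9, 43123939 to 43210369). It was at 39.8, 45.8 and 30.2 CPM in cKO libraries, against 44.7, 40.9 and 32.0 CPM in WT libraries. Library 3 was the lowest in each group, and the spread within a group, 20.4% of the mean in cKO and 16.6% in WT, was larger than the difference of means. The log2 fold change was −0.02 (SE 0.157, 95% interval −0.36 to 0.32, edgeR adjusted p = 0.988).

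Grhl3 encodes a grainyhead-like factor of the epidermal barrier (ENSMUSG00000037188, chromosome 4, 135541888 to 135573630). It was at 25.1, 30.1 and 27.2 CPM in cKO libraries, against 24.0, 28.3 and 27.7 CPM in WT libraries. The log2 fold change was 0.04 (SE 0.112, 95% interval −0.20 to 0.28, edgeR adjusted p = 0.957). Over Grhl3 and the other factors whose groups overlapped, 8 in all, the intervals spanned at most 0.768 to 1.29-fold.

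Among the 6 libraries, the range of log2 CPM from lowest to highest was 1.40 for Myog, 0.80 for Sox8 and 0.60 for Pou2f3, and 0.25 to 0.39 for the other 7. No library was the highest or lowest for all factors. cKO library 2 was the highest for Pou2f3, Spib, Sox8 and Grhl3, and WT library 3 for Hnf4a, Insm1 and Foxj1. WT library 2 was the lowest for Hnf4a, Insm1, Foxj1 and Myog.

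**Figure D3:**
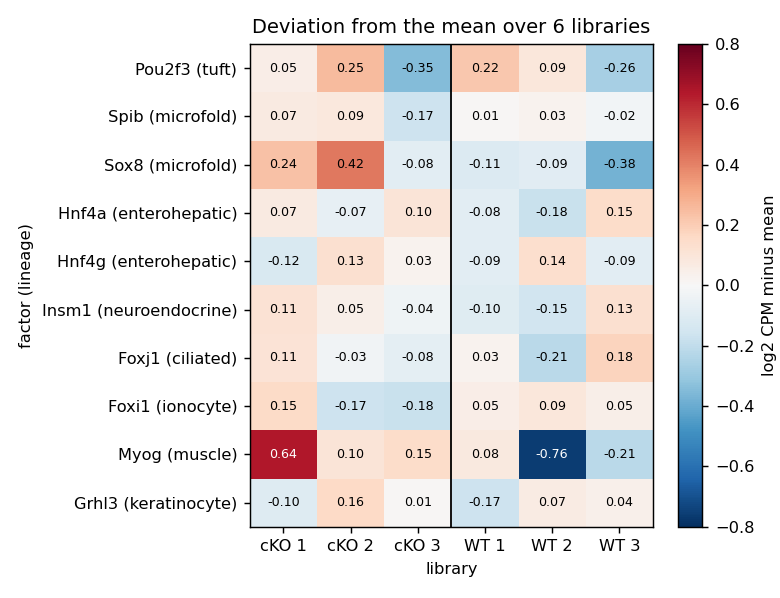
Log2 CPM of each factor in each library minus its mean over the 6 libraries, with cKO libraries left of the line and WT libraries right of it. Myog and Sox8 hold the largest deviations, and Pou2f3 is low in library 3 of each group.

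Relatives of the factors in the same protein families gave a comparison of 16 genes, of which Myod1, Myf5 and Myf6 are also in the muscle list below. None passed (0 of 16, beside 0.0596% of all genes tested), and the median log2 fold change was −0.02. At an unadjusted edgeR p under 0.05 was 1 of 16, beside 8.51% of all genes tested. The muscle determination gene Myod1, which acts upstream of Myog, was at 1.08, 1.26 and 0.760 CPM in cKO libraries, against 1.34, 1.52 and 2.37 CPM in WT libraries. All 3 cKO libraries were below the WT libraries, the opposite order to Myog (log2 fold change −0.76, SE 0.325, edgeR adjusted p = 0.559). Pou2f1, an octamer-binding factor gene, had 58.9 ± 5.46 CPM in cKO and 51.6 ± 3.67 CPM in WT (SD, n = 3 each), with a log2 fold change of 0.19 (SE 0.0975, edgeR adjusted p = 0.639). The Spib relative Spic had 8.88 ± 0.499 CPM in cKO and 7.31 ± 1.24 CPM in WT, with a log2 fold change of 0.28 (SE 0.160, edgeR adjusted p = 0.684).

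The factors were then set beside genes of the same lineage programmes, in 8 lists of 158 genes. Some list genes, such as Myod1 in the muscle list, act upstream of the factor. The lists were chosen with earlier results of these data known, so their counts and shares are not an independent test. None of the 158 passed over all genes with edgeR (32, or 20.3%, were at an unadjusted p under 0.05, beside 8.51% of all genes), and limma-voom called 0. DESeq2 called 9 of them, edgeR without a filter on low counts also 9, and edgeR with the replicate block 12, all higher in cKO. Over all genes in each fit, DESeq2 called 186 of 28543 and edgeR without a filter 160 of 46386. The replicate block called 203 of 28543 (0.711%). Groups did not overlap with cKO higher for 22 genes (13.9%, beside 7.14% of all genes) and with cKO lower for 6 (3.8%, beside 7.28%). The summed level was higher in every cKO library than in every WT library for the microfold, enterohepatic, neuroendocrine and ionocyte lists under all 4 scalings tried. It overlapped between groups for the tuft, ciliated, muscle and keratinocyte lists, except that ciliated genes were lower in cKO when scaled by library totals alone. Sums weigh abundant genes most. Mean CPM in cKO and WT was 1206 and 814.5 for Reg3g, within enterohepatic sums of 3320 and 2730. For Resp18, the gene of lowest edgeR p in its list, it was 93.1 and 51.7, within neuroendocrine sums of 442.1 and 360.5. For Tfcp2l1 it was 151.5 and 125.8, within ionocyte sums of 292.4 and 250.6. Reg3g and Tfcp2l1 were the most abundant genes of their lists, but Resp18 was not. The most abundant neuroendocrine gene, Chga, had a log2 fold change of 0.04, and the most abundant microfold gene, Marcksl1, 0.08. The cKO libraries also had the lower sum of red cell markers (49.6 to 72.5 CPM in cKO against 73.5 to 81.4 CPM in WT), whose part in the programme sums was not tested.

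Microfold genes had the highest median of the 8 lists (0.29), with all 12 members above 0, beside 49% of all genes tested, and 0 past the threshold. Their sum was 4898, 5496 and 5247 CPM in cKO libraries, against 4014, 4717 and 4180 CPM in WT libraries, 121% of the WT mean. The log2 fold changes of their factors were 0.39 for Sox8 and −0.0040 for Spib. Serpinb1a, a protease inhibitor gene with close paralogs, had 1017 ± 161 CPM in cKO and 674 ± 85.9 CPM in WT (log2 fold change 0.59, SE 0.121, edgeR adjusted p = 0.167). For the chemokine gene Ccl6 the log2 fold change was 0.66 (SE 0.162, edgeR adjusted p = 0.291), and Clu, the clusterin gene, 0.31 (SE 0.0884, edgeR adjusted p = 0.329). The groups did not overlap for these 3 genes, which were the 3 of lowest edgeR p in the list. Over the whole list, 5 of 12 genes were higher in cKO without overlap, beside 7.14% of all genes tested.

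Enterohepatic genes had a median of 0.22, with 19 of 22 above 0 and 0 past the threshold, while Hnf4a and Hnf4g lay at 0.07 and 0.02. Their sum was 3238, 3592 and 3132 CPM in cKO libraries, against 2496, 3040 and 2653 CPM in WT libraries. Reg3g, an antimicrobial lectin gene of gut epithelium and the most abundant of the list, had 1206 ± 158 CPM in cKO and 814.5 ± 110 CPM in WT (log2 fold change 0.57, SE 0.112, edgeR adjusted p = 0.147). For the mucin gene Muc13 the log2 value was 0.42 (SE 0.0815, edgeR adjusted p = 0.142). Cdhr2, a cadherin gene of the brush border, had 0.38 (SE 0.0957, edgeR adjusted p = 0.268). For all 3, the genes of lowest edgeR p in the list, the groups did not overlap. Over the whole list, 5 of 22 genes were higher in cKO without overlap, beside 7.14% of all genes tested.

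Neuroendocrine genes had a median of 0.09, with 14 of 20 above 0 and a range from −1.32 to 0.85, beside 0.08 for Insm1. Their sum was 406.5, 452 and 468 CPM in cKO libraries, against 326, 378 and 378 CPM in WT libraries. Resp18, a gene of endocrine secretory granules, had 93.1 ± 12.1 CPM in cKO and 51.7 ± 11.3 CPM in WT (log2 fold change 0.85, SE 0.157, edgeR adjusted p = 0.147). For the synaptic vesicle gene Syp it was 0.48 (SE 0.114, edgeR adjusted p = 0.227). Scg5, which encodes a chaperone of the prohormone convertase PC2, was at 0.55 (SE 0.130, edgeR adjusted p = 0.232).

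Ionocyte genes had a median of 0.01, with 8 of 14 above 0, beside −0.12 for Foxi1. Their sum was 278, 304 and 296 CPM in cKO libraries, against 261, 243.5 and 247 CPM in WT libraries. Cftr, the chloride channel gene that marks ionocytes, was at 37.9, 47.2 and 43.4 CPM in cKO libraries, against 29.5, 26.5 and 24.8 CPM in WT libraries. All cKO libraries were above all WT libraries, and the log2 fold change was 0.67 (SE 0.111, edgeR adjusted p = 0.0605). Over the whole list, 3 of 14 genes were higher in cKO without overlap, beside 7.14% of all genes tested. Atp6v1g3, a proton pump subunit gene, had 0.88 (SE 0.257, edgeR adjusted p = 0.353), and Tfcp2l1, a factor of acid-secreting kidney cells, 0.27 (SE 0.0833, edgeR adjusted p = 0.397). Foxi1 was lowest in cKO libraries 2 and 3, where Cftr was highest.

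**Figure D4:**
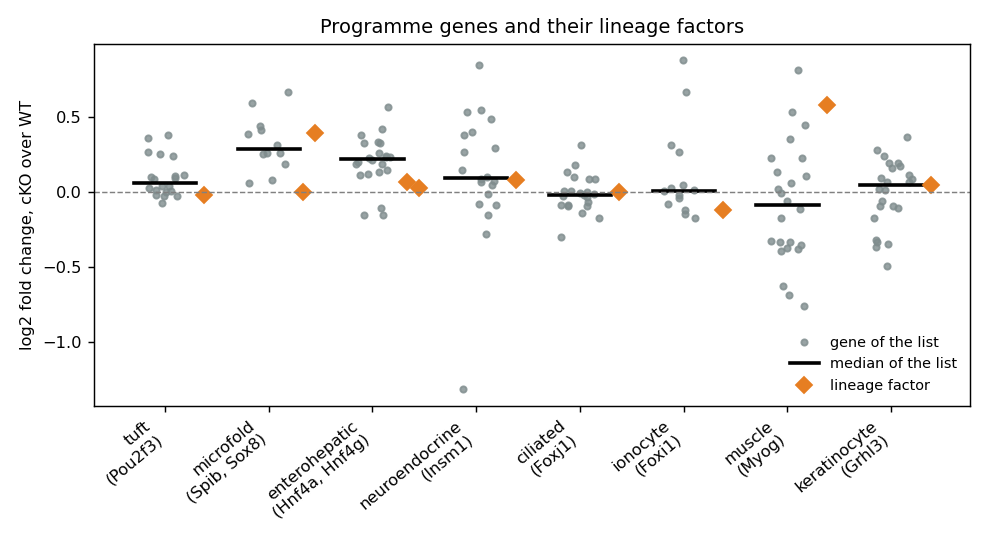
Log2 fold changes, cKO over WT, of the genes of each programme list (grey points), the list's median (black line) and its lineage factors (orange diamonds). The microfold and enterohepatic medians (0.29 and 0.22) lie above Spib, Hnf4a and Hnf4g, but the microfold median lies below Sox8 (0.39), and Myog (0.58) lies above a muscle median of −0.09.

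Muscle genes had a median of −0.09, with 10 of 24 above 0, beside 0.58 for Myog. Their sum was 341.5, 334 and 367 CPM in cKO libraries, against 357, 365.5 and 398 CPM in WT libraries, and cKO library 1, the highest in Myog, did not have the highest sum. Des, which encodes the filament protein desmin, had 47.9 ± 6.68 CPM in cKO and 35.2 ± 4.01 CPM in WT without overlap (log2 fold change 0.44, SE 0.120, edgeR adjusted p = 0.307). For the perinatal myosin gene Myh8 the log2 fold change was −0.38 (SE 0.145, edgeR adjusted p = 0.4996). The list thus held values in both directions, with 3 of 24 genes higher and 4 lower in cKO without overlap, beside 7.14% and 7.28% of all genes.

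Tuft genes had a median of 0.06, with 15 of 20 above 0, beside −0.02 for Pou2f3. Their sum was 525, 541 and 304.5 CPM in cKO libraries, against 492, 469.7 and 336 CPM in WT libraries. Library 3 was the lowest of each group for the sum as for Pou2f3 itself, and the libraries numbered 3 had 70.4% and 77.7% of the WT mean in cKO and WT. Dclk1, a kinase gene used as a tuft cell marker, had a log2 fold change of 0.27 (SE 0.149, edgeR adjusted p = 0.680). Ptgs1, which encodes a cyclooxygenase, had 0.25 (SE 0.169, edgeR adjusted p = 0.738), and the transcription factor gene Gfi1b 0.24 (SE 0.175, edgeR adjusted p = 0.756).

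Ciliated genes had a median of −0.02, with 9 of 22 above 0, beside −0.0020 for Foxj1, and their sum varied least, with 407, 397 and 399 CPM in cKO libraries against 399, 408 and 414 CPM in WT libraries. Dnah5, of the outer dynein arm, differed by −0.30 on the log2 scale (SE 0.109, edgeR adjusted p = 0.466). The dynein heavy chain gene Dnah9 had 0.18 (SE 0.106, edgeR adjusted p = 0.702), and Drc1, of the dynein regulatory complex, 0.31 (SE 0.143, edgeR adjusted p = 0.586). Keratinocyte genes had a median of 0.04, with 14 of 24 above 0, beside 0.04 for Grhl3, and a sum of 1385, 1530 and 1412 CPM in cKO libraries against 1350, 1376 and 1422 CPM in WT libraries. Without overlap, 1 of the 24 was higher and 1 lower in cKO, beside 7.14% and 7.28% of all genes tested. Lor, the loricrin gene of the cornified envelope, had a log2 fold change of −0.50 (SE 0.145, edgeR adjusted p = 0.353) and was lower in all cKO libraries. Cdsn, which encodes corneodesmosin, had −0.32 (SE 0.127, edgeR adjusted p = 0.514), and the protease inhibitor gene Spink5 0.37 (SE 0.139, edgeR adjusted p = 0.506).

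**Figure D5:**
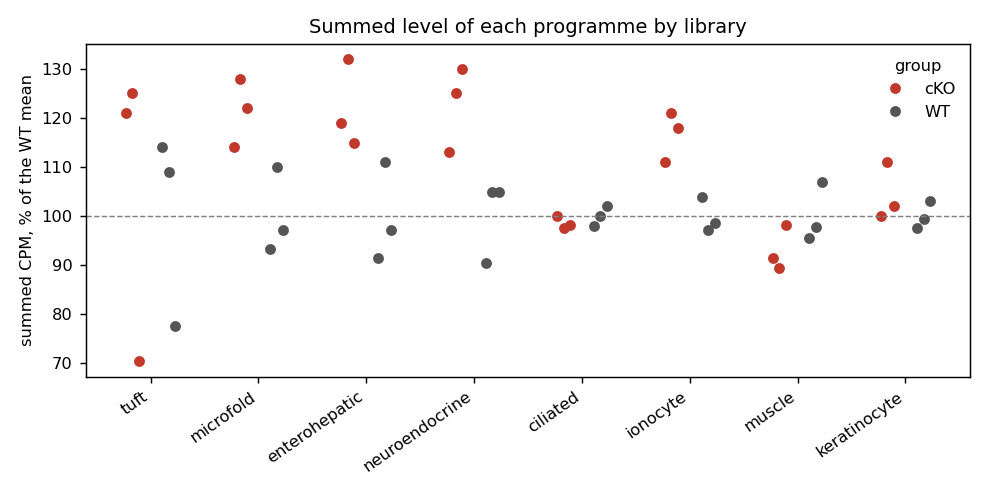
Summed CPM of each programme list by library, as a percentage of the WT mean, with 3 cKO libraries (red, left) and 3 WT libraries (grey, right). The groups are apart for the microfold, enterohepatic, neuroendocrine and ionocyte lists, and library 3 of each group is low for tuft genes (70.4% in cKO and 77.7% in WT).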

How the data were processed

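The deposited count files hold whole-number read counts per gene, made by the authors with featureCounts 2.0.0 on Ensembl release 99 (GRCm38), exons summed by gene, strand ignored and reads over several genes counted for each, per the file headers. The headers show no option for counting read pairs or multiply aligned reads. Per the submitters' processing notes, alignment used TopHat2 2.1.1 to mm10 with SAMtools 1.9, and Subread 2.0.1 is also listed. The deposited series table holds the same counts for 51810 of 55385 genes, with TPM values computed by the authors. The TPM matched counts per kilobase scaled to a fixed sum within 0.000834% for values over 1 TPM. TPM served for levels between genes, and counts for every test.

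Groups came from the sample titles. The test was edgeR 4.0.16 in R 4.3.3 (filterByExpr, TMM, robust quasi-likelihood F test, all 6 libraries) with Benjamini-Hochberg adjustment over 28543 genes. SE is the log2 fold change over the square root of F, and 95% intervals use the fit's degrees of freedom. The script was checked on simulated counts, where it called 65 of 100 genes changed 1.5-fold and 92 of 100 changed 2-fold. It also made 18 false calls there. Libraries differed by a chi-square per gene of 13.4 to 27.8, so all were kept. A floor of 3 counts equals 0.0598 to 0.0660 CPM by library totals without TMM, which covers counting error only. Alternatives included DESeq2 1.42.0, limma-voom (limma 3.58.1), other scalings and filters, a replicate block and leaving out each library. The factors and gene lists were chosen with earlier results of these data known. Named genes were all factors, the 3 genes of lowest p in each programme list and among the relatives, Trp53, Epcam, Aire and H2-Aa; the rule also covers the most abundant gene of each list of other cell types. Promoters are from RefSeq (GRCm38.p6), matched by symbol for 6 of 10 factors.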

Additional observations from a re-analysis of the deposited data

How the results depend on the processing

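The count of 17 genes called over the whole table was 160 without a filter on low counts, 186 with DESeq2 and 203 with the replicate block, and 6 to 16 when a library was left out (7 without cKO library 2, 7 without WT library 1 and 6 without WT library 3); the cause was not tested. No factor was called under any alternative except Myog with the replicate block (1 factor, log2 fold change 0.59, adjusted p = 0.036; its adjusted p over all alternatives ran from 0.036 to 0.958). For Sox8 it ran from 0.146 to 0.958. Same-numbered libraries deviated together only weakly (r = 0.113, 0.0544 and 0.0755), so the numbers were not taken as pairs, although every library correlated best with its own number. Called programme genes without a filter, with DESeq2 and with the block were 1, 2 and 4 for microfold genes, 2, 2 and 2 for enterohepatic, 4, 4 and 4 for neuroendocrine, 1, 1 and 1 for ionocyte, and 1, 0 and 1 for muscle, all higher in cKO. With the block, Foxn1 (adjusted p = 0.00242) and 1 red cell marker were called, both lower. Leaving out libraries gave 0 to 1 for microfold and for ionocyte genes, the 1 without cKO library 1. Log2 fold changes near 0 turned sign: Spib to 0.00077 with RLE scaling and with DESeq2, and Foxj1 to 0.0027 with each of these, 0.0038 with limma-voom and 0.0044 with the block. With libraries left out, the ranges were −0.16 to 0.13 for Pou2f3, −0.049 to 0.074 for Spib, −0.00049 to 0.17 for Hnf4a, −0.036 to 0.10 for Hnf4g, −0.10 to 0.093 for Foxj1 and −0.029 to 0.10 for Grhl3. Sox8 (0.27 to 0.52), Myog (0.38 to 0.78), Insm1 (0.023 to 0.17) and Foxi1 (−0.23 to −0.060) kept their direction under every alternative run.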
